A study of Homo sapiens with 4 samples.

Results

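The genes described here are 32 members of the canonical Wnt pathway and its transcriptional output: receptors, the beta-catenin destruction complex, TCF/LEF transcription factors, inhibitors and genes that beta-catenin is known to switch on. They were taken as a named list of 32 Ensembl identifiers among the 24916 in the table, and all 32 were present. The cells were lines of HCT116, an established human colon adenocarcinoma line. By their labels, CST5 clone 9 and CST5 clone 20 were transfected with CST5, the gene of cystatin D. This protein inhibits cysteine proteases and is normally secreted. Whether the clones express CST5 was not checked here. The controls were un-transfected HCT116 and mock-transfected HCT116, neither given CST5. Each CST5 line is a single clone, the vector and promoter of the transgene are not stated in the labels, and neither is whether the mock line is clonal. Every line was hybridised to 1 Affymetrix array, which gave 2 arrays for CST5 clones and 2 for controls. The p-values rest on the spread among 4 lines and on a spread shared over all tested genes. Unlike lines thus served as the replicates of each group.

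In the canonical pathway, a destruction complex built on APC, AXIN1 and AXIN2 lets GSK3B mark beta-catenin (CTNNB1) for degradation. Binding of a Wnt ligand to a Frizzled receptor with LRP5 or LRP6 stops this, and beta-catenin then enters the nucleus and acts through TCF/LEF factors. Several of the genes it switches on, such as AXIN2, NKD1, RNF43, ZNRF3, NOTUM and the DKK genes, encode inhibitors of the same pathway. HCT116 cells are known to carry a stabilising CTNNB1 mutation and an intact APC gene, so beta-catenin is stabilised in the parental line.

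Both CST5 clones had more SOX4 and EPHB2 RNA and less DKK1 RNA than either control. CTNNB1, GSK3B, AXIN1, APC and the measured receptors lay within 1.5-fold of each control in each clone. AXIN2 and BAMBI were high in clone 9 alone, and RNF43 and ETS2 were low in clone 20 alone. In RNA of whole cultures, fewer cells with a transcript and less of it per cell cannot be told apart. Values are on a scale read as log2 from its range, on which a difference of 1 is 2-fold, and levels of different genes on it cannot be set against each other. A total of 26 members exceeded their array's 40th percentile on at least 2 arrays and were tested, together with 15131 genes in all, while the other 6 lay below it on all 4 arrays. With limma, 0 members passed an adjusted p of 0.05, where 1 gene passed upward and 1 downward among all genes tested (0.00661% each). At an unadjusted p under 0.05, 4 members were higher in the clones (SOX4, EPHB2, APCDD1 and EPHB3) and 2 were lower (DKK1 and SOX9), against a background of 6.91% higher and 6.62% lower among all genes tested, which is just under 2 of 26 in each direction. With each array centred on its median, 3 members were higher and 3 lower, where 3.46% and 13.02% of all tested genes were. Quantile normalization gave 4 higher and 1 lower (5.85% and 5.56% of all tested genes), and so did cyclic loess (5.49% and 6.11%). Leaving out 1 array leaves a single array in its group, so counts at a p threshold from those fits are not set beside these. The median log2 difference of the clones from the controls was 0.06 over the 26 members and -0.01 over all tested genes.

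**Figure D1:**
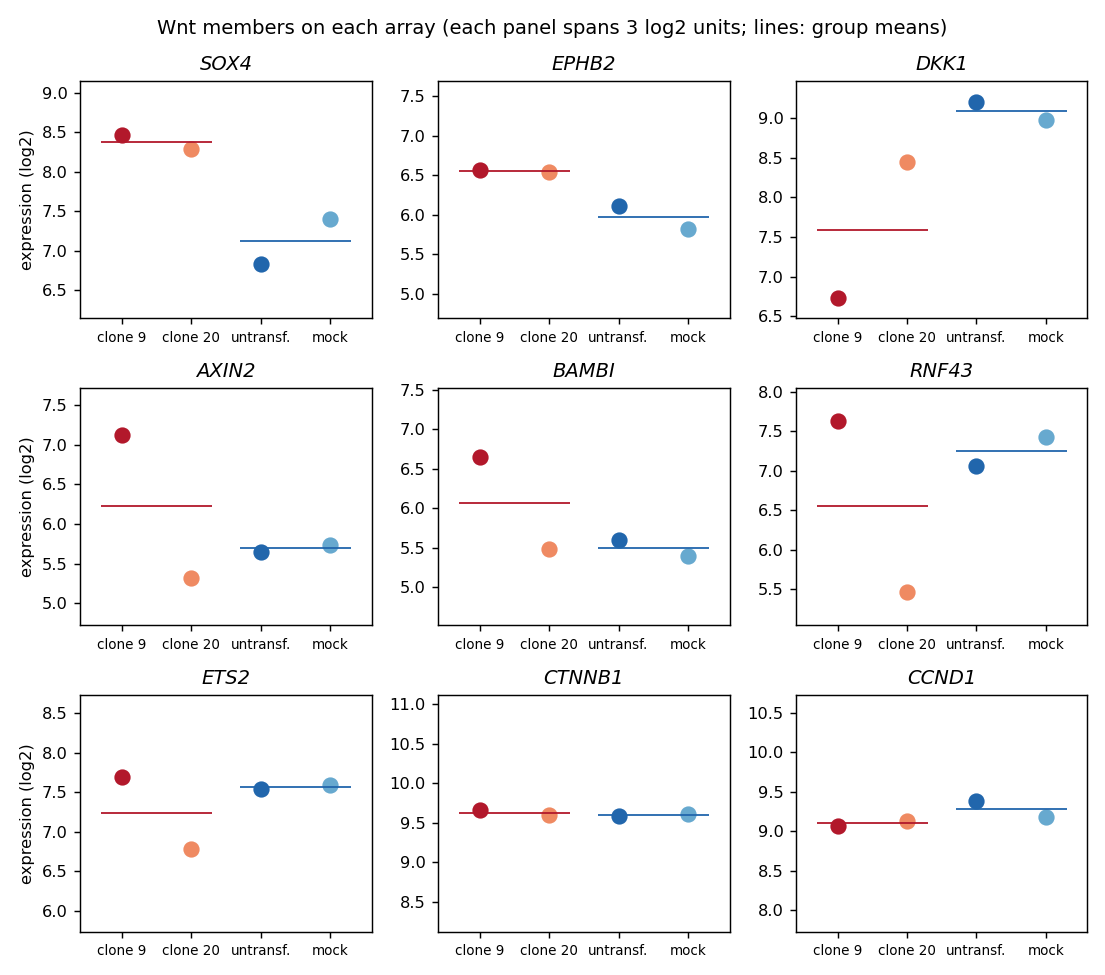
Expression (log2, vertical axis) of 9 genes on each of the 4 arrays, with clone 9 and clone 20 left of un-transfected and mock-transfected cells. Points are arrays, horizontal lines are group means, and every panel spans 3 log2 units. SOX4 and EPHB2 lie above both controls in both clones and DKK1 lies below them, while AXIN2, BAMBI, RNF43 and ETS2 each stand apart in 1 clone.

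Among the receptors, LRP5 and LRP6, the paired co-receptors of Frizzled, differed little and in opposite directions. LRP5 (ENSG00000162337) read 6.33 in clone 9 and 6.15 in clone 20, against 6.56 in un-transfected and 6.48 in mock-transfected cells, a log2 difference of -0.28 (95% interval -0.58 to 0.01, limma, adjusted p = 0.380). LRP6 (ENSG00000070018) read 6.41 and 6.30 in clones 9 and 20, against 6.24 and 6.10 in un-transfected and mock-transfected cells, a difference of 0.19 (adjusted p = 0.491 in limma). Neither gene's clone values overlapped its control values, yet both intervals include 0. Frizzled-7 (FZD7), a Wnt receptor, had 5.43 in clone 9 and 5.13 in clone 20, against 5.26 in un-transfected and 5.12 in mock-transfected cells, and the groups overlapped. LGR5, the R-spondin receptor that marks intestinal stem cells, read 2.38 in clone 9 and 2.20 in clone 20, against 2.28 in un-transfected and 2.31 in mock-transfected cells. All 4 values lay below the arrays' 40th percentiles of 3.33 to 3.48.

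The genes of the beta-catenin core differed little between the groups. CTNNB1 (ENSG00000168036) read 9.66 and 9.59 in clones 9 and 20, against 9.59 in un-transfected and 9.62 in mock-transfected cells. Its log2 difference was 0.02 with a 95% interval of -0.23 to 0.28 (limma, adjusted p = 0.930), narrower than the 0.58 of a 1.5-fold difference in either direction. GSK3B, the kinase of the destruction complex, had values of 7.08 and 7.01 in the clones, against 7.09 and 7.002 in un-transfected and mock-transfected cells, a difference of 0.00 with an interval of -0.27 to 0.27. AXIN1, the constitutive scaffold of the complex, had 5.65 and 5.67 in the clones, against 5.57 in un-transfected and 5.48 in mock-transfected cells, a difference of 0.13 with an interval of -0.13 to 0.40. APC, the other scaffold, read 3.94 in clone 9 and 3.54 in clone 20, against 3.99 in un-transfected and 3.78 in mock-transfected cells. Its value in clone 20 lay close to that array's 40th percentile of 3.48, and APC was not tested under the filter at the 60th percentile. All 4 core genes thus showed mean differences between -0.14 and 0.13, with the widest gap in APC, where clone 20 lay below the other lines.

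Of the TCF/LEF factors, which carry beta-catenin to DNA, TCF7L2 is the main one in colon epithelium. TCF7L2 (ENSG00000148737) read 8.47 and 8.58 in clones 9 and 20, against 8.22 in un-transfected and 8.32 in mock-transfected cells, a log2 difference of 0.25 (SE 0.11, limma, adjusted p = 0.390). Its clone values lay above both control values, while genes of its level class (1 of 10 classes of like mean level) had a median difference of -0.09. TCF7L1, usually a repressor, went the other way, at 6.24 and 6.06 in clones 9 and 20, against 6.31 in un-transfected and 6.30 in mock-transfected cells (difference -0.15). TCF7 differed by 0.04 and its groups overlapped, and LEF1 was dim, between 2.28 and 2.49 on all arrays.

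The inhibitors, many of them feedback genes of the pathway, included the 3 widest gaps between single arrays, those of DKK1, RNF43 and AXIN2. DKK1 (ENSG00000107984), a secreted protein that blocks LRP5 and LRP6, read 6.73 in clone 9 and 8.45 in clone 20, against 9.21 in un-transfected and 8.98 in mock-transfected cells. Both clones were below both controls, but by unlike amounts: clone 9 was 5.56-fold below un-transfected cells and 4.75-fold below mock-transfected cells, and clone 20 was 1.699-fold and 1.45-fold below them. DKK1 averaged 7.59 ± 1.21 in the clones and 9.10 ± 0.16 in the controls (SD, n = 2 each). The log2 difference was -1.51 (2.84-fold, SE 0.54, 95% interval -2.88 to -0.13), with a limma adjusted p of 0.343. Clone 9 decided its size: the difference was -0.65 without clone 9 and -2.36 without clone 20. A larger mean difference in either direction was found in 0.0925% of the tested genes.

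AXIN2 (ENSG00000168646), which encodes a scaffold of the destruction complex and is a widely used readout of beta-catenin activity, was 7.13 in clone 9 and 5.32 in clone 20, against 5.65 in un-transfected and 5.73 in mock-transfected cells. Clone 9 thus exceeded both controls, 2.79-fold over un-transfected and 2.63-fold over mock-transfected cells, whereas clone 20 lay below both by 1.26-fold and 1.33-fold. The mean difference, 0.53 with a standard error of 0.57, has an interval from -0.91 to 1.97 (limma, adjusted p = 0.687) and turned to -0.37 without clone 9. BAMBI (ENSG00000095739), a pseudoreceptor that dampens TGF-beta signalling and is a known beta-catenin target, had the same form. It read 6.65 in clone 9 and 5.48 in clone 20, against 5.60 in un-transfected and 5.39 in mock-transfected cells, so that clone 20 lay between the controls while clone 9 was 2.07-fold and 2.39-fold above them. The mean difference of 0.57 (limma, adjusted p = 0.524) was -0.02 without clone 9.

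RNF43 (ENSG00000108375), a membrane ubiquitin ligase that removes Frizzled receptors, showed its divergence in the other clone. It read 7.63 in clone 9 and 5.46 in clone 20, against 7.06 in un-transfected and 7.43 in mock-transfected cells. Clone 20 was 3.03-fold below un-transfected and 3.90-fold below mock-transfected cells, and clone 9 was above both controls, by 1.48-fold and 1.15-fold. The mean difference was -0.70 with an interval from -2.43 to 1.03 (limma, adjusted p = 0.661), and without clone 20 it was 0.38. ZNRF3, its close relative, did not share this: it read 5.92 in clone 9 and 5.64 in clone 20, against 5.64 in un-transfected and 5.63 in mock-transfected cells.

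APCDD1 (ENSG00000154856), a membrane glycoprotein that binds Wnt and LRP5, was higher in both clones, at 4.55 in clone 9 and 4.89 in clone 20, against 4.11 in un-transfected and 4.33 in mock-transfected cells. Its log2 difference was 0.50 (1.41-fold, SE 0.16, limma, adjusted p = 0.321), where genes of its level class had a median difference of 0.08. NKD1, which binds Dishevelled, read 5.06 and 4.90 in clones 9 and 20, against 4.77 and 4.81 in un-transfected and mock-transfected cells, a difference of 0.19 without overlap of the groups. NOTUM, a secreted enzyme that strips the lipid from Wnt proteins, read 4.98 and 4.85 in the clones, against 5.42 in un-transfected and 4.68 in mock-transfected cells. In NOTUM the widest gap was between the controls, and both clones fell inside it. DKK4 and WIF1, both secreted inhibitors, were dim on all arrays. DKK4 read 3.18 in clone 9 and 2.77 in clone 20, against 2.70 in un-transfected and 2.71 in mock-transfected cells, and WIF1 lay between 2.36 and 2.66.

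**Figure D2:**
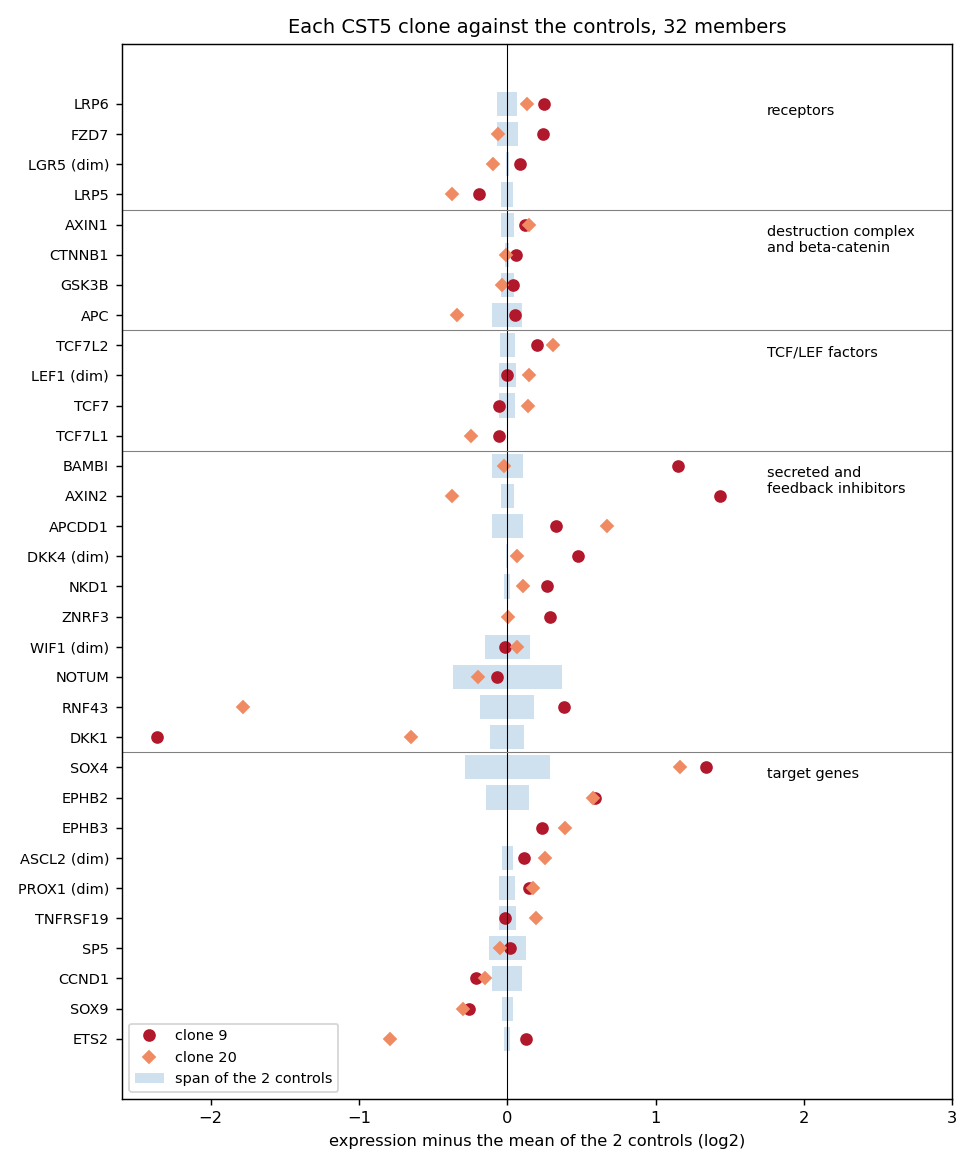
Expression of each of the 32 genes in clone 9 (circles) and clone 20 (diamonds) minus the mean of the controls, in log2 units, with the span of the controls as a bar. Genes are grouped by role, and "dim" marks the 6 below the 40th percentile on all arrays. The core genes and receptors lie near 0, and DKK1, AXIN2, BAMBI and RNF43 spread widest between the clones.

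Among the target genes, SOX4 differed most. SOX4 (ENSG00000124766), a high-mobility-group transcription factor linked to progenitor states and to epithelial-mesenchymal transition, read 8.46 in clone 9 and 8.29 in clone 20, against 6.84 in un-transfected and 7.41 in mock-transfected cells. Both clones were above both controls by at least 0.88 on the log2 scale (1.84-fold), and SOX4 was the 1 member at least 1.5-fold higher in all 4 clone-to-control differences, where 0.430% of all tested genes were; 0 members were that much lower, with a background of 0.370%. SOX4 averaged 8.37 ± 0.12 in the clones and 7.12 ± 0.40 in the controls (SD, n = 2 each). The log2 difference was 1.25 (2.38-fold, SE 0.21, 95% interval 0.72 to 1.78), with rank 88 by p among 15131 genes and a limma adjusted p of 0.266. The controls themselves were apart: mock-transfected cells exceeded un-transfected cells by 0.57, a gap that 1.82% of tested genes surpassed. Leaving out each array in turn gave differences from 0.97 to 1.54.

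EPHB2 and EPHB3 encode receptors for ephrin-B ligands that sort cells along the intestinal crypt, and both are established targets of beta-catenin in colon epithelium. EPHB2 (ENSG00000133216) read 6.56 in clone 9 and 6.55 in clone 20, against 6.12 in un-transfected and 5.82 in mock-transfected cells. The clones were nearly equal and both above the controls, with a log2 difference of 0.58 (SE 0.13, 95% interval 0.24 to 0.92, limma, adjusted p = 0.282). EPHB3 (ENSG00000182580) read 4.54 and 4.69 in clones 9 and 20, against 4.30 in un-transfected and 4.31 in mock-transfected cells. Its difference was smaller, 0.31 (SE 0.11, limma, adjusted p = 0.338), and 0.23 above the median of its level class. With all 4 arrays kept, limma's unadjusted p of SOX4, EPHB2 and DKK1 stayed under 0.05 under the other scalings, filters and eBayes trend. APCDD1 did so wherever it was tested. SOX9 did not under quantile normalization and cyclic loess, and EPHB3 did so only without a filter. Neither APCDD1 nor EPHB3 was tested under the stricter filter. All of these are refits of the same 4 arrays and are not independent checks.

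SOX9 (ENSG00000125398), a transcription factor of crypt progenitor and Paneth cells, read 6.996 in clone 9 and 6.957 in clone 20, against 7.29 in un-transfected and 7.22 in mock-transfected cells. The clones were lower and close to each other, with a log2 difference of -0.28 (1.21-fold, SE 0.10, limma, adjusted p = 0.348), where the median of its level class was -0.08. CCND1 (ENSG00000110092), which encodes cyclin D1, read 9.07 and 9.13 in the clones, against 9.39 in un-transfected and 9.18 in mock-transfected cells, a difference of -0.18 with an interval from -0.48 to 0.12. Its clone values were below both controls, by 0.05 at the narrowest. ETS2 (ENSG00000157557), an ETS-family transcription factor, was 7.69 in clone 9 and 6.78 in clone 20, against 7.55 in un-transfected and 7.59 in mock-transfected cells. As with RNF43, only clone 20 was low among the 4 lines, 1.71-fold below un-transfected and 1.76-fold below mock-transfected cells. The mean difference of -0.33 was 0.13 without clone 20.

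The remaining targets overlapped between the groups or were too dim to be tested. SP5 (ENSG00000204335), a zinc-finger factor and direct target, read 5.51 and 5.44 in clones 9 and 20, against 5.36 in un-transfected and 5.61 in mock-transfected cells, a difference of -0.01 with an interval from -0.34 to 0.31. TNFRSF19, a membrane receptor of the TNF receptor family, differed by 0.09 and overlapped between the groups. ASCL2, the intestinal stem cell factor, and PROX1, a homeobox factor raised in colon tumours, were below the 40th percentile on all arrays. ASCL2 read 3.23 and 3.37 in the clones, against 3.16 in un-transfected and 3.08 in mock-transfected cells, and PROX1 ranged from 2.27 to 2.50. For the 6 dim members the measured differences can understate any real one, since signal over background was not known.

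Over the 26 tested members, the clone values did not overlap the control values in 13. Of these, 8 were higher in the clones, where 23.3% of all tested genes were, and 5 were lower, where 25.1% were. The 8 were SOX4, EPHB2, APCDD1, EPHB3, TCF7L2, NKD1, LRP6 and AXIN1, and the 5 were DKK1, LRP5, SOX9, CCND1 and TCF7L1. These shares, 30.8% and 19.2% of the members, are near the background. On the group means, 1 member was at least 1.5-fold higher (SOX4, background 1.52%) and 2 were at least 1.5-fold lower (DKK1 and RNF43, background 1.78%).

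**Figure D3:**
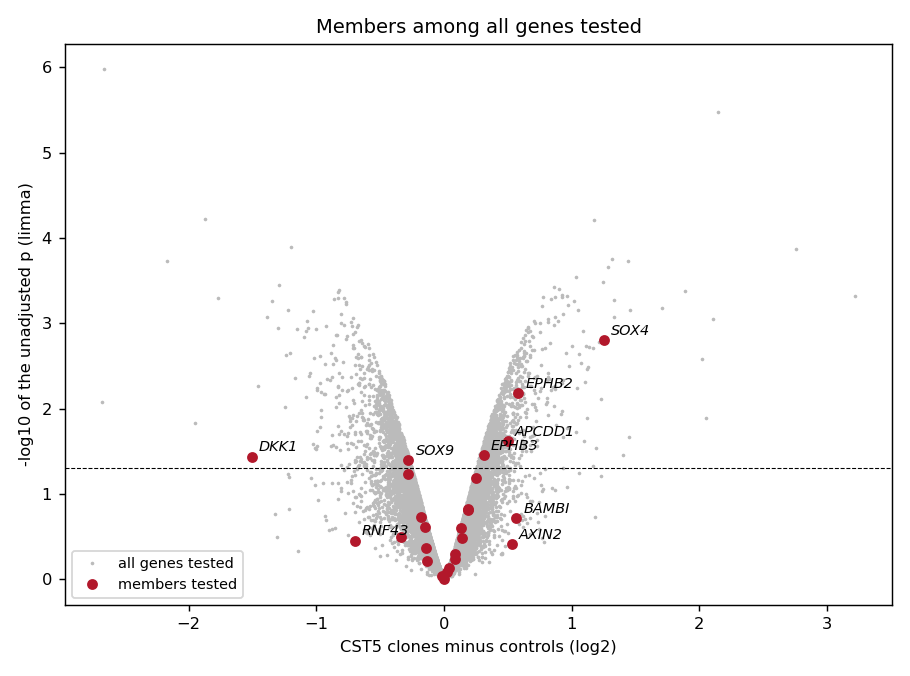
Log2 difference of the CST5 clones from the controls (horizontal axis) against -log10 of limma's unadjusted p (vertical axis) for 15131 tested genes (grey) and the 26 tested members (red). The dashed line marks an unadjusted p of 0.05. SOX4 and EPHB2 stand highest among the members, and DKK1 lies farthest to the left, while AXIN2, BAMBI and RNF43 have wide differences and low -log10 values.

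Single arrays were then set side by side, with no replicate check, to see which lines carried these differences. Comparisons with the same control share that array. Against un-transfected cells, clone 9 was at least 1.5-fold higher in AXIN2, SOX4 and BAMBI (3 members, background 2.60%) and lower in DKK1 (1 member, background 3.01%). Against mock-transfected cells it was higher in AXIN2, SOX4, BAMBI and EPHB2 (4 members, background 3.11%) and lower in DKK1 (1 member, background 3.26%). Clone 20 was higher than un-transfected cells in SOX4 and APCDD1 (2 members, background 2.68%) and lower in RNF43, DKK1 and ETS2 (3 members, background 3.44%). It was higher than mock-transfected cells in SOX4 and EPHB2 (2 members, background 3.55%) and lower in RNF43 and ETS2 (2 members, background 3.34%). SOX4 was the member present in all 4 of these comparisons.

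Clone 9 and clone 20 differed from each other in 5 of the 26 members. RNF43, AXIN2, BAMBI and ETS2 were at least 1.5-fold higher in clone 9 than in clone 20 (4 members, background 3.09%), by 4.49-fold, 3.51-fold, 2.25-fold and 1.89-fold. DKK1 was 3.27-fold lower in clone 9 than in clone 20 (1 member, background 2.74%). In 4 members (RNF43, AXIN2, ETS2 and TCF7) the clones lay on opposite sides of both controls. This share, 15.4% of the members, is near the background of 16.4% of all tested genes. TCF7 met this rule only narrowly, with clone 9 just 0.002 below mock-transfected cells on the log2 scale. A gap between the clones as wide as that of RNF43 was surpassed by 0.0793% of tested genes, and that of AXIN2 by 0.159%. Mock-transfected and un-transfected cells were that far apart in 1 member, NOTUM, which was 1.66-fold lower in mock-transfected cells (background 1.04%), and 0 members were 1.5-fold higher (background 0.654%). With 1 array per clone, a difference between the lines and one between the arrays cannot be told apart.

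The DNA just before the start sites of 5 members is shown because these members mark the ends of the pattern: SOX4 and EPHB2 were higher in both clones, DKK1 was lower in both, RNF43 was low in clone 20 alone, and SP5, a direct target, did not separate the groups. The windows hold the 250 bases before the RefSeq start site on GRCh38.p14, written 5′ to 3′ on the gene's strand, and each gene's first listed start was used. SOX4 is at chr6:21593501-21593750 (plus strand), EPHB2 at chr1:22710588-22710837 (plus), DKK1 at chr10:52314031-52314280 (plus), RNF43 at chr17:58417535-58417784 (minus) and SP5 at chr2:170715087-170715336 (plus). Capitals mark the TCF/LEF core motif, searched as CTTTGAA or CTTTGAT on both strands, and the TATA box, searched as TATAAA on the gene's strand.
SOX4: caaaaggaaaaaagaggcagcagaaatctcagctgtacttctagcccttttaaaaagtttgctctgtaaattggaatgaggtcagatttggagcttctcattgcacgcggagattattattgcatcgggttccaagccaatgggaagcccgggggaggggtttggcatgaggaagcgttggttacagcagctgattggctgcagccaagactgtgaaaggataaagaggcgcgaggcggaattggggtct
EPHB2: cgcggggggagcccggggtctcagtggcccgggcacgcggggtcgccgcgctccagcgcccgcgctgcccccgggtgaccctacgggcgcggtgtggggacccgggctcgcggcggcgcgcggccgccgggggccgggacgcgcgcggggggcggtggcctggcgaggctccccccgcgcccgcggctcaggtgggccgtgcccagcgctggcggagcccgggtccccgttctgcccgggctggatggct
DKK1: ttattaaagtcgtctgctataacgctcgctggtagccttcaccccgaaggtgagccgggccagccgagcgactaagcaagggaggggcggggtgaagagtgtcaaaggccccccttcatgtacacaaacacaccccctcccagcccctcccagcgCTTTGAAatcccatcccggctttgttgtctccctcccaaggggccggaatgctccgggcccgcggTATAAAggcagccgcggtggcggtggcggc
RNF43: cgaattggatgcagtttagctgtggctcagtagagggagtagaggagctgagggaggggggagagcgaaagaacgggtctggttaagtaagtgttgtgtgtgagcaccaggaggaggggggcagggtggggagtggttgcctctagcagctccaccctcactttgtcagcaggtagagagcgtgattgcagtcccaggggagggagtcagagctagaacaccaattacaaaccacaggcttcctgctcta
SP5: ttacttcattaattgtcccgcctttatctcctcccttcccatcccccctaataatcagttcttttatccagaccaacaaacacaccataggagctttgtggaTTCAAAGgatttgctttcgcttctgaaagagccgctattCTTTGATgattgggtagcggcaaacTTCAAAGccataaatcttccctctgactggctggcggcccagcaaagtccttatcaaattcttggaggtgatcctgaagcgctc
The TCF/LEF core occurred 3 times in SP5, with first bases at -148, -109 and -84 relative to the start site, and 1 time in DKK1, at -95, followed by a TATA box at -30. It did not occur in these windows of SOX4, EPHB2 and RNF43. Of the 28 windows kept, from 20 members, 2 (7.14%) held the motif, near the 5.94% of all 35116 windows. TATAAA was present in 6.80% of all windows. Base composition also differed among the 5, with 84.8% G and C and 42 CpG sites in EPHB2, 62.8% and 18 in DKK1, 56.0% and 4 in RNF43, 48.8% and 8 in SOX4 and 45.6% and 6 in SP5. The median was 68.8% G and C over the members' 28 windows and 58.0% over all windows. The letters alone do not show whether a factor binds there in these cells.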

How the data were processed

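Expression in 4 HCT116 lines was profiled on 1 Affymetrix array each, from 100 ng of RNA amplified in 2 cycles and biotinylated, per the labels' protocols. The authors deposited 1 table of 24916 Ensembl identifiers whose values are read as log2 because they range from 1.03 to 12.7. All folds depend on that base. The labels state neither the array model nor the background correction, summarisation and normalization. Between 207 and 265 identifiers had exactly equal values, to every deposited digit, on a given pair of arrays, so no 2 arrays were duplicates.

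Member identifiers were paired with symbols as listed with the gene set. No table paired other identifiers with symbols, so CST5, cell type markers and a wider pathway list were not analysed here and do not check the labels. The members and lists were chosen with earlier results of these data known.

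Genes above their array's 40th percentile on at least 2 arrays were tested with limma 3.58.1 in R 4.3.3 (eBayes after lmFit, with 3.26 prior and 2 residual degrees of freedom, Benjamini-Hochberg over 15131 genes, threshold 0.05). Level classes are 10 equal classes of all genes by mean level. Values on each array are given for members with an unadjusted p under 0.05, a 1.5-fold mean difference, one of the 10 largest differences between single arrays, or a place among 14 genes fixed by name (AXIN2, LGR5, NKD1, RNF43, ZNRF3, ASCL2, SP5, NOTUM, CCND1, CTNNB1, APC, AXIN1, GSK3B and TCF7L2). Of the rest, LRP5, LRP6, FZD7, TCF7 and TCF7L1 are also given by array, and the others as ranges or differences. Alternatives were other scalings, filters, an eBayes trend, a 2-fold bar and leaving out each array. Promoter windows came from RefSeq (GRCh38.p14), where 20 of 32 members were matched by symbol and kept, and were reduced to the bases before the start site. Any member window on a withheld chromosome was left out, while that chromosome stayed among all windows.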

Additional observations from a re-analysis of the deposited data

Results flagged for a closer look

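In 4 of the 26 tested members (15.4%) clone 9 lay on one side of both controls and clone 20 on the other. This share is near the 16.4% of all tested genes. Clone 9 exceeded clone 20 by 2.17 on the log2 scale in RNF43, by 1.81 in AXIN2 and by 0.92 in ETS2. In TCF7 the difference of clone 9 from clone 20 was only -0.19, with values of 5.94 in clone 9 and 6.14 in clone 20, against 6.05 in un-transfected and 5.94 in mock-transfected cells. Clone 9 was nearly equal to mock-transfected cells there, only 0.002 below them. Each clone had 1 array, and the difference between the clones was not tested.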

How the results depend on the processing

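Where 1 array was left out, the lone array of its group was taken to have the spread of the remaining pair. With all 4 arrays kept, 0 members passed limma's adjusted threshold in any alternative run. The smallest adjusted p of a member then lay between 0.211 and 0.373. With 1 array left out, from 1 to 3 members were higher and 0 to 2 lower at 1.5-fold in all remaining differences. Fewer differences are then asked for, so this rule is looser than with all arrays. The share of all tested genes under it was not counted, so these counts are not a result about the members. At an unadjusted p under 0.05, the count of lower members was highest, 5, without clone 9 (DKK1, ETS2, LRP5, RNF43 and AXIN2). It was lowest, 0, without un-transfected cells, and was 1 without clone 20 and 1 without mock-transfected cells. These counts rest on fits with a single array in 1 group, so they are not set against a share of all tested genes. SOX4 was in the higher 1.5-fold count whichever array was left out, which was fixed in advance because it passed in all 4 differences. It was joined by AXIN2 and BAMBI without clone 20 and by EPHB2 without un-transfected cells. RNF43 ranged from -1.78 without clone 9 to a reversed 0.38 without clone 20. Quantile normalization and cyclic loess left 1 member lower at an unadjusted p under 0.05 (DKK1), where SOX9 no longer passed, and had TCF7L2 in place of EPHB3 among the 4 higher. Median centring put 1 member (DKK1) at least 1.5-fold lower in all differences and 2 (NOTUM and SOX4) that far apart between the controls. The filter at the 60th percentile, which tested 20 members, gave 2 higher (SOX4 and EPHB2; 5.29% of all tested genes), 2 lower (DKK1 and SOX9; 9.06%) and 0 apart between the controls. Asking for 2-fold in all differences left 0 members higher. The share of all tested genes past a fold bar was not counted in the alternatives. The fold counts of members given here therefore stand without a background and cannot be read as a trait of the members. Over all genes, median centring gave 524 higher and 1970 lower at an unadjusted p under 0.05, against 1046 and 1002 as deposited. The median difference over members ranged from -0.03 to 0.12 with 1 array left out. The cause of these shifts was not tested, apart from fewer genes or arrays by construction. No paired analysis was possible because nothing in the labels numbers the lines in pairs. No detection calls were at hand, so the dim members have no known floor.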
